A study of Homo sapiens with 6 samples.

Results

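Genes named ZNF with a number encode the largest human family of DNA-binding proteins, and the 184 described here were those that A549 cells expressed. They were chosen as protein-coding genes of that name with a mean of 2 FPKM or more over the 3 sgControl libraries, out of 476 such genes and 62700 genes in the table. FPKM set a gene's fragments against its length in kilobases and the depth of its library. A549 is an established epithelial line from a human lung adenocarcinoma. Its RNA was sequenced as 3 sgH2AC19 libraries, which are knockout derivatives made with a guide RNA against the histone H2A gene H2AC19, and 3 sgControl libraries, which are labelled wild type. Nothing in the labels says whether the knockout cells were 1 clone, or whether the 3 libraries of a group came from separate cultures, so a p-value here covers only how these libraries vary, which could be technical. H2AC19 was listed at 0 in all 6 libraries, as was its near-identical copy H2AC18, so the table offers no check of the knockout.

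Most ZNF proteins are chains of C2H2 fingers, in which a pair of cysteines and a pair of histidines hold a zinc ion and each finger reads a few bases of DNA. Many also carry a KRAB box, a short repressor domain that recruits the scaffold protein TRIM28, which brings in the methyltransferase SETDB1 and heterochromatin proteins. KRAB genes are known for silencing transposable elements, and many lie in tandem clusters on chromosome 19. A minority of ZNF genes act as activators, in RNA processing, in translation control or on the cytoskeleton.

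The recovered depth was 35681162 to 45738439 reads in sgH2AC19 libraries and 36255807 to 40570759 in sgControl libraries. All 184 genes had 1 FPKM or more in every library, and the lowest number of reads behind any of their values was about 87, for ZNF784 at its annotated length. Epithelial markers summed to 754 to 791 FPKM in sgH2AC19 and 587 to 624 FPKM in sgControl, with 6 of 6 at 1 FPKM or more. KRT18 and KRT8 made up most of the sum, and the list went both ways: KRT18, KRT8, CDH1 and EPCAM were called higher, and KRT19 and CLDN4 lower. Fibroblast markers summed to 5.16 to 6.02 FPKM in sgH2AC19 and 3.29 to 3.75 in sgControl, nearly all of it from LUM and COL1A1, the 2 of 5 at 1 FPKM or more. Leukocyte markers summed to 2.17 to 3.20 FPKM in sgH2AC19 and 1.67 to 2.32 in sgControl, nearly all of it CD14, the 1 of 5 at 1 FPKM or more, with CD3E listed at 0. Endothelial markers, 0 of 5 at 1 FPKM or more, summed to 0.213 to 0.269 FPKM in sgH2AC19 and 0.129 to 0.204 in sgControl. The part of these markers in the ZNF results was not tested. In such bulk samples, fewer cells of a type and less RNA per cell cannot be told apart.

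The sgControl level chose the genes and is therefore a description. It ran from 2.03 to 96.9 FPKM with a median of 3.61. Just inside the level of selection lay ZNF417, ZNF615 and ZNF484 at 2.03, 2.04 and 2.04 FPKM in sgControl, and just outside lay ZNF213, ZNF552 and ZNF254 at 1.98, 1.99 and 1.99 FPKM. By a profile search of their translated coding sequences, 94 of the 184 held a KRAB box and 90 did not. The median protein had 9 matches to the C2H2 finger pattern and the longest chain had 33. Chromosome 19 held 67 of the genes, 49 of them with a KRAB box.

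The promoters of 6 of these genes are printed below as examples. Each runs 5′ to 3′ on the gene's own strand from 250 bases before to 50 bases after the RefSeq start (GRCh38.p14). All but ZNF664 were picked for holding the word marked in capitals, so they do not show how common it is. ZNF664 had the largest change of the 184. ZNF267, ZNF180 and ZNF134 are the largest rises, and ZNF277 and ZNF641 the largest falls, among called genes whose RefSeq promoter holds the word CCGGAAG. No promoter was found for ZNF618 or ZNF706, so these were not searched. The word is a core that ETS-family activators recognise. Capitals mark that word on either strand, where its reverse complement reads CTTCCGG. The windows are chr12:123972965-123973264 (+) for ZNF664, chr16:31873557-31873856 (+) for ZNF267, chr19:44500473-44500772 (-) for ZNF180, chr19:57613992-57614291 (+) for ZNF134, chr7:112206445-112206744 (+) for ZNF277 and chr12:48350870-48351169 (-) for ZNF641.
ZNF664: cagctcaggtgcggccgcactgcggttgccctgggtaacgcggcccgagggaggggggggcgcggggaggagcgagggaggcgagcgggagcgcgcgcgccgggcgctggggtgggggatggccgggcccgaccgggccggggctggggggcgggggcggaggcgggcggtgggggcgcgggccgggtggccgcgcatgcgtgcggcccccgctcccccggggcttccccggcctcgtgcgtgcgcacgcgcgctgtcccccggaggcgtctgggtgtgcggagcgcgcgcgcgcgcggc
ZNF267: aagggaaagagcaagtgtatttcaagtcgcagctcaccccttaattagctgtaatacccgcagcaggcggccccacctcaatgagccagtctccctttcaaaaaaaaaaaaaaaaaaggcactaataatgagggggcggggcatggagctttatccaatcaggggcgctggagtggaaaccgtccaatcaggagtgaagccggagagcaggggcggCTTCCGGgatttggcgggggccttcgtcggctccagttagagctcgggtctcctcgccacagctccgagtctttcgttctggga
ZNF180: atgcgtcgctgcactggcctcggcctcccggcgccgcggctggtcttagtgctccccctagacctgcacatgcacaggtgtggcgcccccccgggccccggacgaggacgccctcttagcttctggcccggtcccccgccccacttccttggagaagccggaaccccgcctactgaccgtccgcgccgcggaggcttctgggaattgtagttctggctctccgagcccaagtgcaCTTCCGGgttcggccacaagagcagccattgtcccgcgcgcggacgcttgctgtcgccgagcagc
ZNF134: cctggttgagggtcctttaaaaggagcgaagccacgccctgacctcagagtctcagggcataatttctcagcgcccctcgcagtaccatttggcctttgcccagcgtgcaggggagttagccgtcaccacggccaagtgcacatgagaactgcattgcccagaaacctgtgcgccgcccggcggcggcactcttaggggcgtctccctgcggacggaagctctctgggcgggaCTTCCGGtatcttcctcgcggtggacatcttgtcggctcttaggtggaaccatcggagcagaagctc
ZNF277: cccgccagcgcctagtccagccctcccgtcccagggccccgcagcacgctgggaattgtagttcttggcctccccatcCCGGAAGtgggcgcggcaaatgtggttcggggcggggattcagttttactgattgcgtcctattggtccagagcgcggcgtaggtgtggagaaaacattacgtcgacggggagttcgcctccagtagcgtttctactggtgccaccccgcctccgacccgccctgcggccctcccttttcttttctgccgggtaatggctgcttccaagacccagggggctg
ZNF641: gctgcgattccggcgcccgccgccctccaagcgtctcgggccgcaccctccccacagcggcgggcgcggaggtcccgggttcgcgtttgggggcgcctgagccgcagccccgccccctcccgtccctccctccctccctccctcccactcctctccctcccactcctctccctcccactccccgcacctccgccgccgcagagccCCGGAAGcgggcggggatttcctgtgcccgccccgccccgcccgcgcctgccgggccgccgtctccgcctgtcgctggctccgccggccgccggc

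RefSeq promoters were found for 156 of the 184 genes. CCGGAAG stood in 40.4% of them on either strand, against 20.5% of the promoters of all genes tested and 10.7% of 27305 promoters in the RefSeq table. Among the genes with a KRAB box the share was 45.5%, and among those without it was 35.4%. The median log2 fold change was 0.05 with the word and 0.07 without it, and 20.6% of the genes with it rose, against 20.4% of those without it. The ZNF664 promoter printed above has no match, which says only that these letters are not in that window.

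Of the other 5 words searched, also on both strands, ACTACAA, a part of the element bound by the family member ZNF143, stood in 8.97% of the ZNF promoters, against 4.10% of those of genes tested. The YY1 core GCCATNTT stood in 13.5%, against 11.1%. The CREB site TGACGTCA stood in 5.13%, against 3.49%. The SP1 box GGGCGG stood in 65.4%, below the 71.4% of genes tested, and the E-box CACGTG in 6.41%, below 10.4%. No word contains another, and a match is a description of the sequence, not evidence of binding.

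More ZNF genes were higher than lower in sgH2AC19 cells, by small amounts. Of the 184, 37 rose (20.1%) and 10 fell (5.43%) at an adjusted p below 0.05 in limma, fitted on log2(FPKM + 1) over all genes, and 137 did not pass. Among all 12871 genes tested, 12.0% were called higher and 11.0% lower, 23.1% in all. Among the 10302 of those with 2 FPKM or more in sgControl, 13.0% were called higher and 12.8% lower, 25.8% in all. The log2 fold changes of the ZNF genes had a median of 0.06 with quartiles of -0.05 and 0.19, beside a median of -0.01 with quartiles of -0.13 and 0.12 over all genes tested. Among the 81 with 4 FPKM or more in sgControl, 18 rose and 4 fell, and the median was 0.027. In 121 of the 184 (65.8%) the log2 fold change was above 0, against 48.8% of all genes tested and 46.7% of those at 2 FPKM or more in sgControl. On this scale, large changes were no more frequent than in general: 6 genes (3.26%) reached 0.5 in size, against 5.09% of all genes tested. The scale understates changes of low genes. The ZNF genes had a median of 3.61 FPKM in sgControl, below the 5.43 FPKM of all genes tested. With a pseudocount of 0.1 more of them passed 0.5, such as ZNF875 at 0.58 and ZNF784 at -0.59. The general share at that setting was not counted. The 3 sgH2AC19 values all lay above the 3 sgControl values in 63 genes (34.2%) and all below in 24 (13.0%), where 21.5% and 21.7% of all genes tested did so, and 21.6% and 24.1% of those at 2 FPKM or more in sgControl.

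The number of falls was smaller without some libraries: it was 6 without sgH2AC19 replicate 2, and 5, 4 and 5 without sgControl replicates 1, 2 and 3. Calls over all genes, 2967 with every library, also dropped in these fits without 1 library, to 1965, 1663, 1513 and 1632 in the same order. The rises numbered 25 to 42 over all 6 such fits. Of the 46 called genes other than ZNF664, 22 rises and 4 falls were called in every alternative fit, and none reversed.

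**Figure D1:**
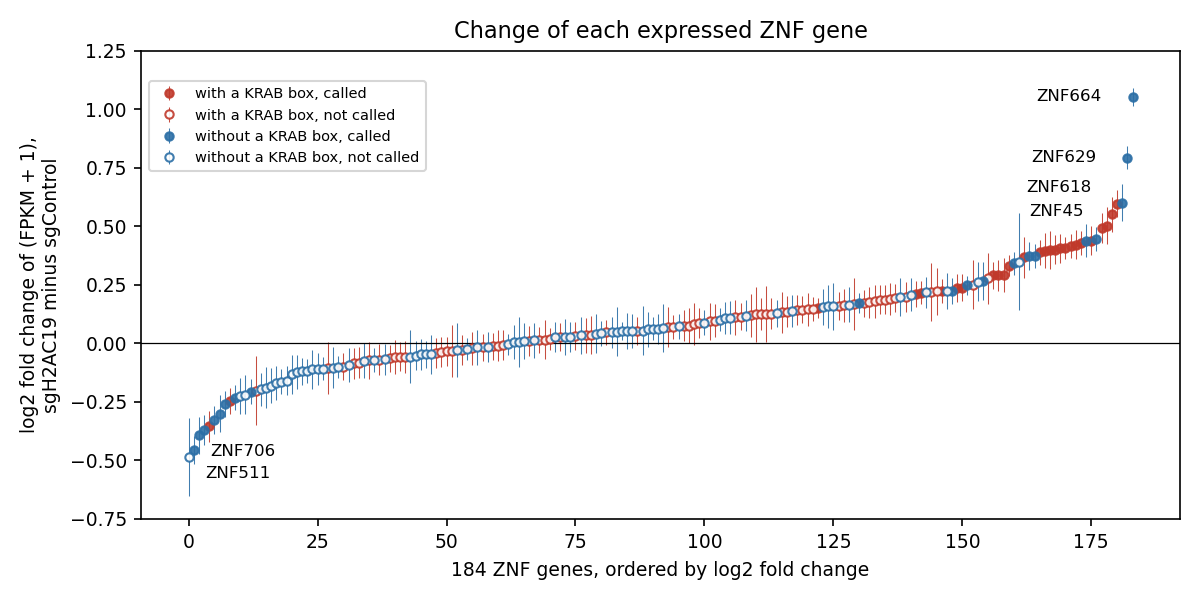
Log2 fold change of (FPKM + 1), sgH2AC19 minus sgControl, of each of the 184 ZNF genes in order of size. Points are limma estimates with their SE, red with a KRAB box and blue without, filled where the adjusted p is below 0.05. ZNF664 stands at 1.05, apart from the next gene, ZNF629, at 0.79, and 121 points lie above 0.

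Because the sgControl level chose the genes, those near 2 FPKM were kept where their sgControl values happened to be high, which leans the set towards lower values in sgH2AC19. With the genes chosen on the mean of all 6 libraries instead, 193 genes qualified, 43 rose, 9 fell and the median was 0.09. Another 103 ZNF genes below 2 FPKM in sgControl were also tested, of which 18 rose and 1 fell, with a median of 0.11. This choice leans the other way, since a gene low in sgControl can be tested through its sgH2AC19 values. Of all 2569 genes tested below 2 FPKM in sgControl, 205 rose and 107 fell, with a median of 0.03.

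Among genes with a KRAB box, rises outnumbered falls, in a division that was made after the values had been seen and so has no test. Of 94, 25 rose (26.6%) and 2 fell (2.13%), those being ZNF14 and ZNF641. Their median log2 fold change was 0.13, with 71 of 94 above 0. Of the 90 genes without the box, 12 rose (13.3%) and 8 fell (8.89%), with a median of 0.03 and 50 above 0. Over all genes tested 12.0% rose and 11.0% fell, and at 2 FPKM or more in sgControl 13.0% and 12.8%. The share of rises without the box was thus near the general one. The count of KRAB rises was 16 without sgH2AC19 replicate 2 and 16 without either sgControl replicate 1 or 3, and the 2 falls became 1 without sgH2AC19 replicate 2 or without any 1 sgControl library. KRAB boxes and long finger chains go together: 61 KRAB genes with 10 or more fingers had a median of 0.15, and 29 genes with such chains but no KRAB box had a median of 0.05. Genes with fewer than 10 fingers had medians of 0.05 with the box (33 genes) and 0.01 without it (61 genes).

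**Figure D2:**
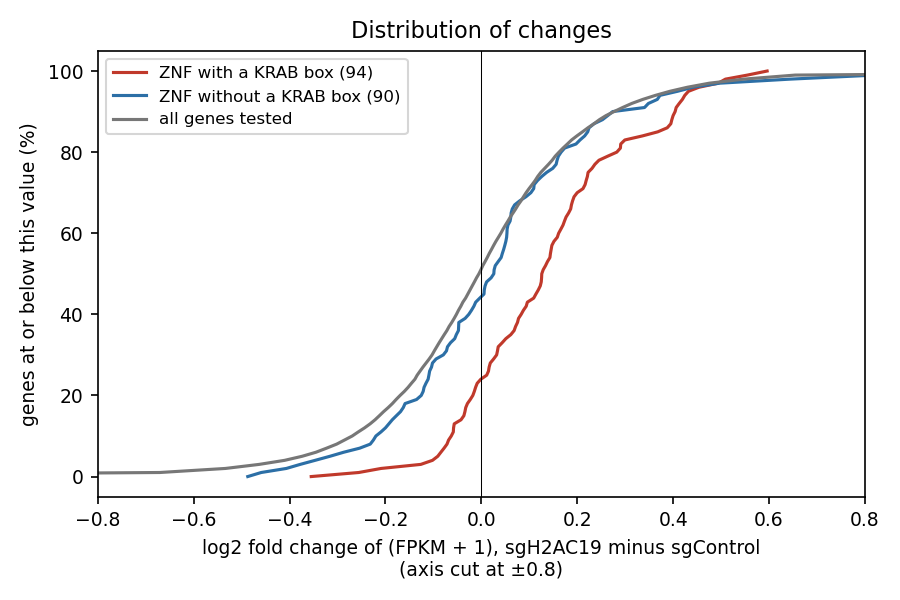
Cumulative share of genes (%) against log2 fold change of (FPKM + 1), sgH2AC19 minus sgControl, for ZNF genes with and without a KRAB box and for all genes tested. The KRAB curve lies to the right with its median at 0.13, while the curve without the box, with its median at 0.03, runs close to that of all genes, with its median at -0.01.

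Fingers of paralogs resemble each other, and the sources used here do not say how shared reads were counted. At most 5% of their 75-base windows were found in transcripts of other genes for all but 21 genes, and 33 overlapped an exon of another gene on the same strand and 53 on the opposite strand. Among the 103 genes with neither, 20 rose and 8 fell, with a median of 0.05. Among the 53 of these with a KRAB box, 13 rose and 2 fell, with a median of 0.12.

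The group means were not carried by 1 library in the KRAB genes. Each gene's log2 value was set against its mean over the 6 libraries, and the median of these deviations was taken over the genes of each library. For KRAB genes it was 0.07, 0.08 and 0.03 in sgH2AC19 replicates 1 to 3 and -0.07, -0.06 and -0.06 in sgControl replicates 1 to 3. The groups did not overlap, and sgH2AC19 replicate 3 was the lowest of its group. For ZNF genes without the box it was 0.03, 0.01 and -0.02 in sgH2AC19 and -0.014, -0.004 and -0.002 in sgControl, and the groups overlapped. Over all genes tested it was 0.01, 0.01 and -0.02 in sgH2AC19 and -0.002, 0.002 and 0.008 in sgControl, so that the third sgH2AC19 library also sat low for genes in general.

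**Figure D3:**
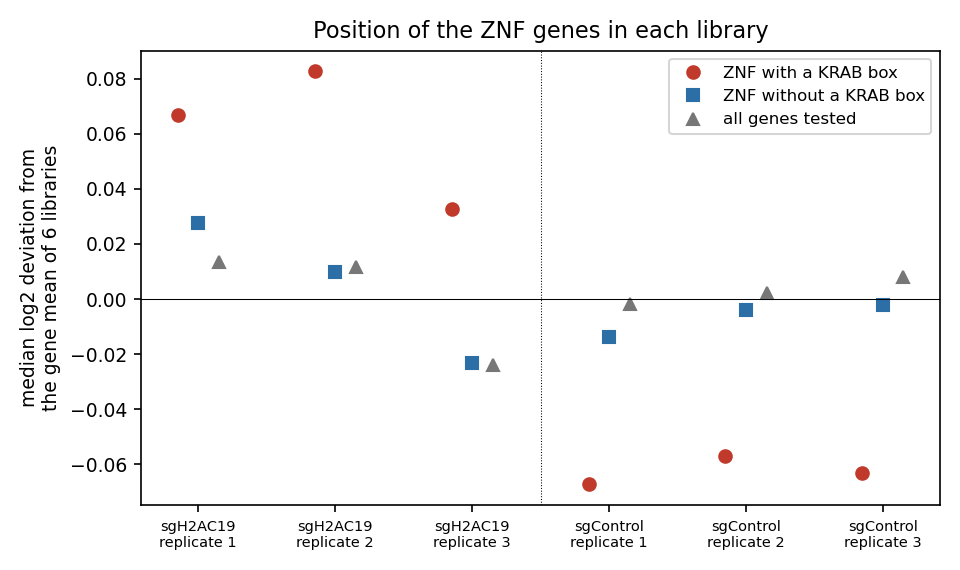
Median log2 deviation from each gene's mean over the 6 libraries, for ZNF genes with a KRAB box (circles), without one (squares) and all genes tested (triangles), by library. The circles lie between 0.03 and 0.08 in sgH2AC19 and between -0.07 and -0.06 in sgControl.

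Whether the genes move together within a group was described from the deviations that remain after each group's mean is taken out. Over all pairs of KRAB genes the median correlation across the 6 libraries was 0.12, with quartiles of -0.30 and 0.49. It was 0.06 over all pairs of the 184 genes, 0.01 over pairs without a KRAB box, and 0.02 over pairs among every 4th gene tested, 3218 in all. These correlations rest on 6 libraries and share their depth and composition, and their spread is far wider than the distance between the medians.

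ZNF664, a C2H2 protein whose function is little characterised (gene ENSG00000179195, chr12:123971845-124015439, GRCh38, GENCODE 29), was named in the choice of genes because of its change, so its values carry no test here. It had 36.4, 37.8 and 36.5 FPKM in sgH2AC19 libraries and 17.3, 17.4 and 17.1 FPKM in sgControl libraries. The groups lay far apart and each varied little, with means of 36.9 ± 0.766 FPKM in sgH2AC19 and 17.3 ± 0.145 FPKM in sgControl (SD, n = 3 each). Its log2 fold change was 1.05 with an SE of 0.04, and 19 of the 12871 genes tested had a larger one. Exons of ZNF664 overlap those of RFLNA and AC068790.8 on the same strand and of CCDC92 on the opposite strand, and 4.92% of its windows were shared. AC068790.8 was listed at 0 in all 6 libraries, and RFLNA was at 0.0132 FPKM or less in sgH2AC19 and at 0.0153 or less in sgControl. CCDC92 averaged 3.53 ± 0.0883 FPKM in sgH2AC19 and 3.04 ± 0.0462 FPKM in sgControl, with an adjusted p of 0.0501.

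ZNF629, a long-chain C2H2 protein on chromosome 16 without a KRAB box (chr16:30778449-30787202), had 8.33, 8.23 and 7.82 FPKM in sgH2AC19 libraries and 4.34, 4.13 and 4.33 FPKM in sgControl libraries. The groups did not overlap, and it rose by 0.79 on the log2 scale (SE 0.05, adjusted p 0.000271 in limma). ZNF618, known for binding the methylcytosine reader UHRF2, had 5.17, 4.76 and 6.01 FPKM in sgH2AC19 libraries and 3.04, 3.05 and 3.36 FPKM in sgControl libraries. Its sgH2AC19 values varied more, yet all exceeded the sgControl ones, and the log2 fold change was 0.60 (SE 0.08, adjusted p 0.00325). ZNF281, a GC-box-binding regulator studied in stem cells and epithelial plasticity, was among the most abundant of the family. It had 35.4, 36.9 and 34.6 FPKM in sgH2AC19 libraries and 27.3, 25.5 and 24.9 FPKM in sgControl libraries. No values overlapped, and the log2 fold change was 0.45 (SE 0.05, adjusted p 0.0018). ZNF134, without a KRAB box by the profile, averaged 6.09 ± 0.570 FPKM in sgH2AC19 and 4.22 ± 0.179 FPKM in sgControl (SD, n = 3 each), and rose by 0.44 (adjusted p 0.00592).

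The remaining 5 of the 10 largest rises were KRAB genes, 4 of them on chromosome 19. ZNF45 had 6.77, 6.79 and 6.48 FPKM in sgH2AC19 libraries and 4.20, 3.76 and 4.29 FPKM in sgControl libraries. It rose by 0.60 (SE 0.06, adjusted p 0.00116), with no overlap. ZNF227, from the same cluster, had 4.13, 3.63 and 3.44 FPKM in sgH2AC19 libraries and 2.43, 2.12 and 2.13 FPKM in sgControl libraries, and rose by 0.55 (adjusted p 0.0034). An antisense overlap with ZNF235 leaves some of its reads uncertain. ZNF180, from that cluster too, averaged 5.27 ± 0.437 FPKM in sgH2AC19 and 3.62 ± 0.0361 FPKM in sgControl (SD, n = 3 each), and rose by 0.44. ZNF875, formerly called HKR1, averaged 5.82 ± 0.421 FPKM in sgH2AC19 and 3.85 ± 0.193 FPKM in sgControl, and rose by 0.49. ZNF267 on chromosome 16 averaged 3.77 ± 0.057 FPKM in sgH2AC19 and 2.38 ± 0.342 FPKM in sgControl, and rose by 0.50. The adjusted p of these 3 was 0.00384, 0.00277 and 0.00592. Another 27 genes rose by 0.15 to 0.43, and 20 of them had a KRAB box. Apart from ZNF664, the other 9 of the 10 largest rises were called in every alternative fit.

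**Figure D4:**
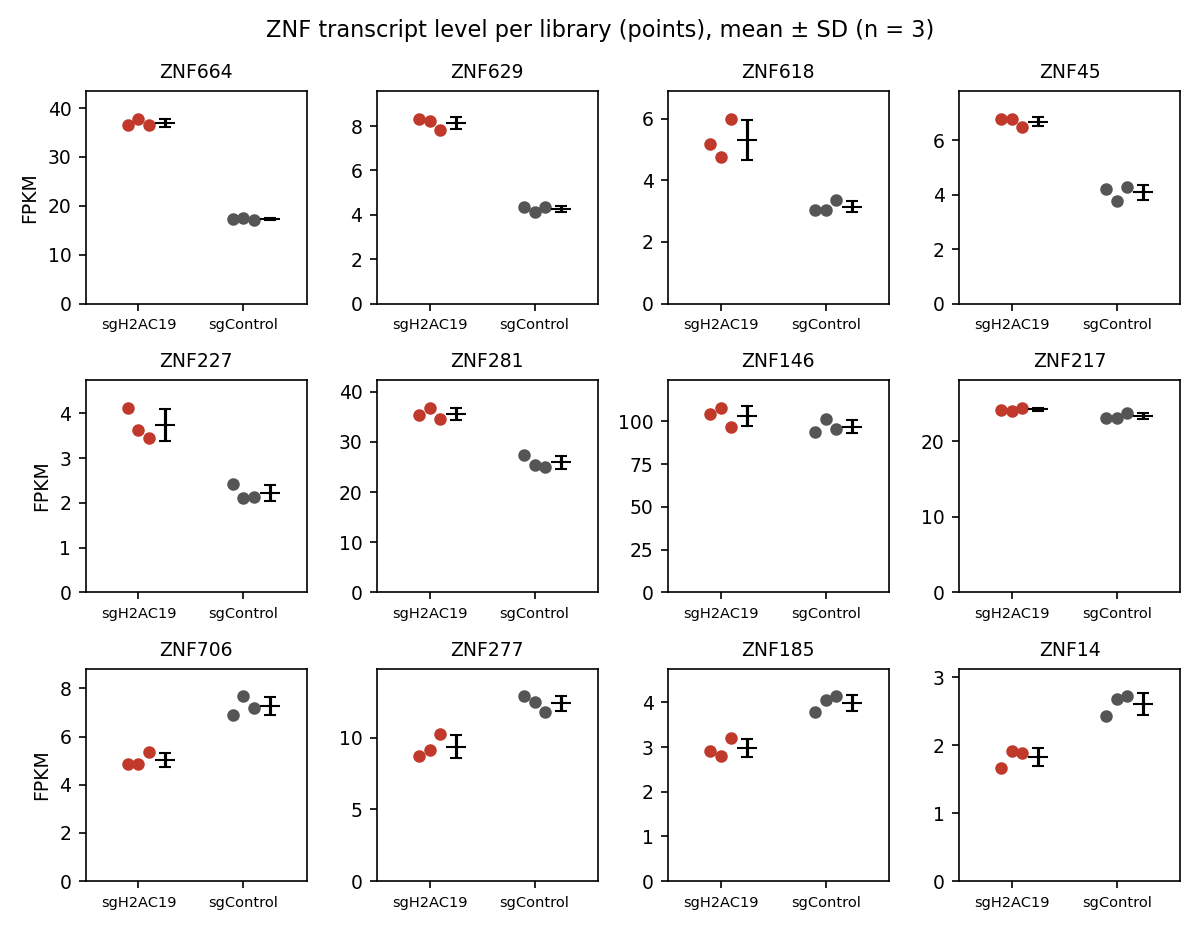
FPKM of 12 ZNF genes in each library, with the sgH2AC19 libraries left of the sgControl libraries and the mean ± SD of 3 libraries beside the points. The axes start at 0 and differ between genes. ZNF664 stands at 36.4 to 37.8 FPKM in sgH2AC19 and 17.1 to 17.4 in sgControl, while the groups of ZNF146 overlap.

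The falls were fewer and mostly outside the KRAB class. ZNF706, a short protein with a single finger that restrains Klf4 in mouse embryonic stem cells, had 4.87, 4.84 and 5.35 FPKM in sgH2AC19 libraries and 6.91, 7.67 and 7.20 FPKM in sgControl libraries. The groups did not overlap, and it fell by 0.46 on the log2 scale (SE 0.06, adjusted p 0.00266). ZNF277, a partner of the Polycomb protein BMI1, had 8.73, 9.15 and 10.3 FPKM in sgH2AC19 libraries and 12.9, 12.5 and 11.8 FPKM in sgControl libraries, and fell by 0.37 (adjusted p 0.00881). Both of its groups were spread over more than 1 FPKM without meeting, and 6.25% of its windows were shared with an overlapping RN7SK pseudogene. ZNF185, a LIM-domain protein of the actin cytoskeleton with no C2H2 finger, averaged 2.97 ± 0.206 FPKM in sgH2AC19 and 3.99 ± 0.184 FPKM in sgControl (SD, n = 3 each), and fell by 0.33 (adjusted p 0.0105). ZNF14, the largest KRAB fall, averaged 1.82 ± 0.135 FPKM in sgH2AC19 and 2.61 ± 0.158 FPKM in sgControl, and fell by 0.35 (adjusted p 0.0112). These 4 genes were called in every alternative fit.

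The other 6 falls were lost in at least 1 alternative fit. ZNF784 fell by 0.39, at 1.35 ± 0.148 FPKM in sgH2AC19 and 2.09 ± 0.185 FPKM in sgControl. ZNF513, a retinal regulator whose exons overlap SNX17 on the opposite strand, fell by 0.30, ZNF275 by 0.26, ZNF641 by 0.25, ZNF335, a part of histone methyltransferase complexes mutated in microcephaly, by 0.23, and ZNF507 by 0.21. The lowest log2 fold change of all, -0.49, was that of ZNF511, which did not pass the test, shares 15.8% of its windows and overlaps the read-through gene ZNF511-PRAP1. It is named here after its values were seen.

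Of the 5 members most abundant in sgControl, only ZNF281 passed the test. ZNF146, a protein made almost wholly of fingers, had 104, 108 and 96.8 FPKM in sgH2AC19 libraries and 93.8, 101 and 95.8 FPKM in sgControl libraries. The groups overlapped, with a log2 fold change of 0.09 (adjusted p 0.28). ZNF217, an oncogene amplified in breast cancer, had 24.2, 24.0 and 24.4 FPKM in sgH2AC19 libraries and 23.1, 23.1 and 23.7 FPKM in sgControl libraries, a log2 fold change of 0.05 (adjusted p 0.367). The groups of ZNF217 did not overlap. ZNF770 averaged 22.3 ± 1.84 FPKM in sgH2AC19 and 21.3 ± 0.489 FPKM in sgControl, and ZNF622, a maturation factor of the large ribosomal subunit, 21.4 ± 2.19 FPKM in sgH2AC19 and 19.1 ± 0.716 FPKM in sgControl. Neither passed the test, with adjusted p of 0.513 and 0.182. ZNF622 was lowest in sgH2AC19 replicate 3, at 18.9 FPKM, and passed without that library, with an adjusted p of 0.0148.

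A list of 16 members drawn up for other roles, such as RNA processing, translation control or the cytoskeleton, is mixed. It also holds regulators of transcription, among them ZNF281, ZNF277 and ZNF143. Of the 16, 1 rose, ZNF281, and 2 fell, ZNF277 and ZNF185, with a median log2 fold change of 0.02. These shares, 6.25% and 12.5%, stand beside 12.0% and 11.0% of all genes tested. ZNF598, the ubiquitin ligase that marks collided ribosomes, averaged 5.60 ± 0.521 FPKM in sgH2AC19 and 6.03 ± 0.384 FPKM in sgControl. ZNF207, a spindle assembly factor, averaged 12.0 ± 0.511 FPKM in sgH2AC19 and 12.2 ± 0.223 FPKM in sgControl. ZNF143, an activator at many promoters, averaged 5.04 ± 0.369 FPKM in sgH2AC19 and 4.93 ± 0.280 FPKM in sgControl. These differences were smaller than the larger SD of the pair in each of the 3 genes.

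Of the 67 ZNF genes on chromosome 19, 15 rose and 3 fell, with a median of 0.11. Of the 720 other genes tested on that chromosome, 66 rose and 103 fell, with a median of -0.04. The 117 ZNF genes elsewhere had 22 rises, 7 falls and a median of 0.05. With a KRAB box, the median was 0.14 on chromosome 19 (49 genes) and 0.09 elsewhere (45 genes). Without one, it was -0.04 on chromosome 19 (18 genes) and 0.03 elsewhere (72 genes).

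The genes on chromosome 19 fell into 13 groups when neighbours with starts under 1 Mb apart were joined. In the group at chr19:8806170-9621399, all 5 members (ZNF558, ZNF317, ZNF266, ZNF121 and ZNF561) were above 0, with a median of 0.22, and ZNF558 and ZNF317 rose. At chr19:57191500-58418327, 14 of 16 were above 0 and 3 rose, and 14 of the 16 had a KRAB box. At chr19:51991332-53580269, 7 of 8 were above 0 and 2 rose, and all 8 had the box. Over all 94 KRAB genes of the set, 75.5% were above 0 and 26.6% rose. Over all genes tested, 48.8% were above 0 and 12.0% rose. In the group at chr19:43596392-44500524, ZNF45, ZNF227 and ZNF180 rose by 0.44 to 0.60 while the other 6 members lay between -0.23 and 0.14 without passing, so the median was -0.01. The group at chr19:55576770-56160893 has no KRAB gene among its 8 members, and there 3 were above 0 and ZNF784 fell. Over 55 pairs of neighbours with under 1 Mb from an end to the next start, the Spearman rho of their changes was 0.28. It is given as a description since neighbours can share sequence and reads.

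**Figure D5:**
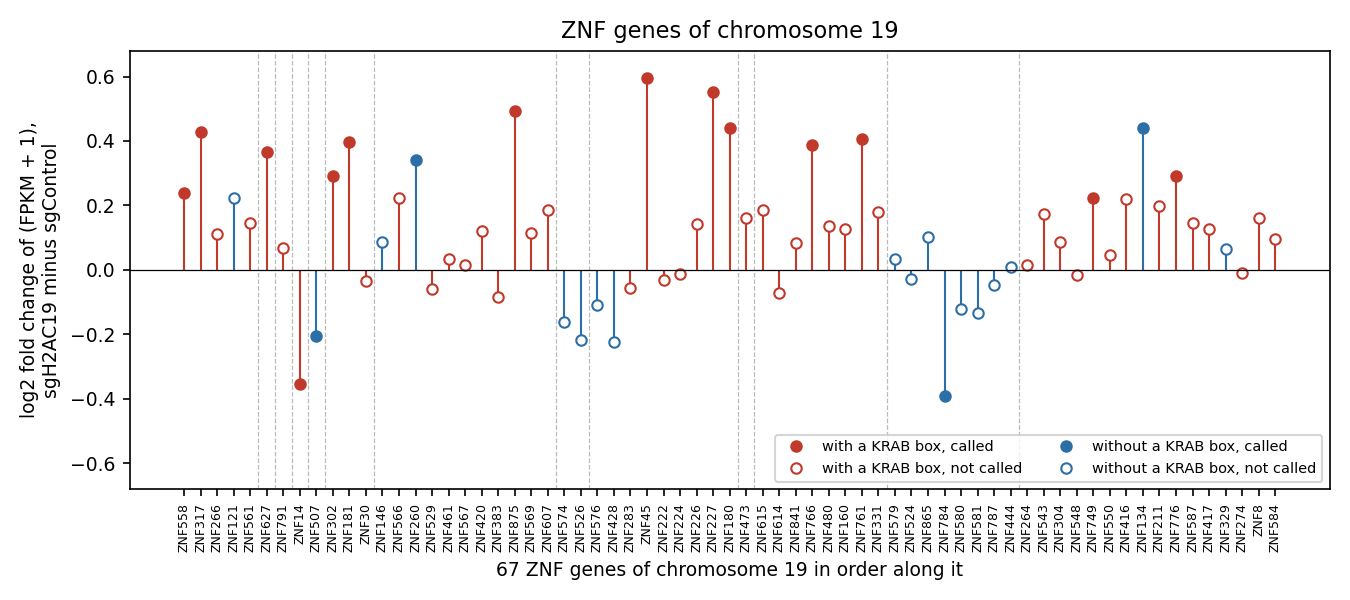
Log2 fold change of (FPKM + 1), sgH2AC19 minus sgControl, of the 67 ZNF genes of chromosome 19 in their order along it, red with a KRAB box and blue without, filled where the adjusted p is below 0.05. Dashed lines part the 13 groups of genes with starts under 1 Mb apart. Of the 49 KRAB genes, 39 lie above 0.

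A list of 28 co-repressor and heterochromatin genes, which holds TRIM28 and its partners but also silencing factors that act without KRAB boxes, had 27 genes that could be tested. TRIM28 itself had 59.6, 54.1 and 56.6 FPKM in sgH2AC19 libraries and 56.3, 54.6 and 57.3 FPKM in sgControl libraries. The groups overlapped, with a log2 fold change of 0.02 (adjusted p 0.834), and that of SETDB1 was 0.03 (adjusted p 0.694). In all 7 of the 27 rose (25.9%) and 1 fell (3.70%), where 12.0% and 11.0% of all genes tested did, with a median of 0.02. The rises were SUV39H2, a heterochromatin methyltransferase (0.60), TASOR of the HUSH silencing complex (0.43), the deacetylase HDAC1 (0.37), the heterochromatin proteins CBX5 (0.30) and CBX1 (0.30), the methyltransferase EHMT1 (0.21) and the remodeller CHD3 (0.17). MORC3, an ATPase of silent chromatin, fell by 0.30.

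Related families with other names gave smaller sets. At 2 FPKM or more in sgControl, 4 of 29 ZBTB genes rose and 4 fell (13.8% each, near the 13.0% and 12.8% of all genes at that level), leaving out ZBTB8OS, which is no zinc finger gene, with a median of 0.02, the largest rise being ZBTB4, a methyl-DNA-binding repressor, at 0.55. Of 7 ZSCAN genes 1 rose (14.3%, also near that 13.0%), ZSCAN29 at 0.79, and 0 fell, with a median of 0.02. Of only 3 ZKSCAN genes 2 rose (66.7%), ZKSCAN1 at 0.65 and ZKSCAN5 at 0.44, and 0 fell. Of 9 genes named ZFP with a number, 2 rose (22.2%), ZFP62 by 0.43 and ZFP90 by 0.34, with a median of 0.03. In that set 1 fell (11.1%), ZFP36 by 0.58, which is a CCCH-type RNA-binding protein and not a C2H2 one.

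The number of fingers went weakly with the change. The Spearman rho between the C2H2 matches and the log2 fold change was 0.25 over the 184 genes, 0.27 among those with a KRAB box and 0.04 among those without it. Against the sgControl level it was -0.09, and against exon length -0.02. These are descriptions across genes, which are not independent replicates.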

How the data were processed

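RNA of 3 sgH2AC19 and 3 sgControl libraries was made with a spin-column kit and a SMARTer mRNA library kit, per the labels' protocols. The authors deposited 1 table of FPKM, per the file headers, with 0 columns left unused. Aligner, counting method and strand use: not given in the sources used here. The submitters' processing notes name GRCm38 and mm10, both of the mouse, yet the 62700 IDs matched human genes.

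The table was fitted whole. The groups were compared on log2(FPKM + 1) by limma 3.58.1, run in R 4.3.3 with its trend option, over genes that reached 1 FPKM in 3 or more libraries, two-sided, with Benjamini-Hochberg adjustment over all 12871 genes and a threshold of 0.05. All adjusted p-values are from limma, and this scale understates changes of low genes. Fold changes are sgH2AC19 minus sgControl. The limma step was tested on simulated data with planted log2 changes of 0.5 and 1.0. It recovered 78 of 87 and 113 of 113 of them, with 11 false calls. Changes below 0.5, which most of the called ZNF genes had, were not simulated.

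Library totals were recovered from the spacing of FPKM values at GENCODE 29 lengths, and 45 of the 184 genes gave whole reads at that length within 0.001 reads. KRAB boxes were found with a pyhmmer 0.12.3 profile (E-value limit 0.001), and C2H2 fingers by the cysteine and histidine pattern, in coding sequences translated from GENCODE 29. Promoters are from RefSeq.

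The genes, lists and divisions were chosen with earlier results of these data known. Named were ZNF664, the 10 largest called rises and falls, the 5 most abundant genes, those at the edge of the level of selection, called co-repressors, members with other roles and up to 2 called examples of related families. Other names are stated where used. Alternatives were median-of-ratios and upper-quartile scaling, other filters, a pseudocount of 0.1, other levels of selection, the replicate block, leaving out each library and, chosen after seeing the data, leaving out genes with shared sequence or overlap.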

Additional observations from a re-analysis of the deposited data

How the results depend on the processing

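Counts and medians of the ZNF genes kept their direction in each alternative run, and none reversed. With all genes above 0 FPKM tested, 4 ZNF genes were lower, 16 KRAB genes higher and 1 lower, with 36938 genes sharing the adjustment. At a level of selection of 4 FPKM, with fewer genes, 18 were higher and 4 lower, the median was 0.027, and of 25 KRAB genes 8 were higher and 0 lower in limma, with 0 lower at an unadjusted p below 0.05. Without genes of shared sequence or overlap, 20 were higher and 13 KRAB genes higher. Leaving out each library gave 25 to 42 higher, 4 to 12 lower, medians of 0.05 to 0.09, 16 to 27 KRAB genes higher and 1 to 3 lower. All-gene calls, 2967 with every library, ran from 1513 without sgControl replicate 2 to 3429 without sgH2AC19 replicate 3. Scaling, a mean of at least 1 FPKM and a pseudocount of 0.1 moved the higher count to at most 38.

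Replicate numbers are shared between the groups, and the labels do not say whether libraries of the same number were handled together. Deviations of same-numbered libraries correlated at 0.052, 0.035 and 0.060, which is weak, yet each was the highest for its library. With the replicate block, 31 ZNF genes were higher and 10 lower, with 19 KRAB genes higher and 2 lower, and 39 of 47 calls were kept.

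The 3 libraries a group limit the precision. For 163 of the 184 genes at most 5% of windows were shared with other genes, and for the other 21 the split of shared reads is uncertain.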
